A study of Mus musculus with 4 samples.

Results

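The 10 genes described here encode the MHC class II antigen presentation machinery of the mouse and were chosen by name: the chains H2-Aa, H2-Ab1 and H2-Eb1, the invariant chain Cd74, the peptide-loading chains H2-DMa, H2-DMb1 and H2-DMb2, the loading modulator chains H2-Oa and H2-Ob, and the regulator Ciita. All 10 were found among the 23235 genes of the deposited tables, and all 10 reached 1 FPKM in at least 1 library. RNA was sequenced in bulk from acute myeloid leukaemia with the genotype NRASG12V/Mll-AF9, carried by SCID/Beige mice injected through the tail vein and aged for 20 days. The groups were NRASG12V expression off, with 3 libraries at 48 h, 72 h and 96 h of doxycycline, and NRASG12V expression on, with 1 library. All 4 libraries share the Mll-AF9 allele and the SCID/Beige host. The labels name no separate library with doxycycline and NRASG12V left on, so the drug, elapsed time and the switch cannot be told apart. Nothing says whether the libraries came from separate mice. The p-values below take their error from the 3 off libraries, with none from the single on library, and cover only these samples. SCID/Beige hosts lack mature B and T cells but keep macrophages and dendritic cells. The age of the mice beyond those days, the tissue harvested, the strain of the leukaemia cells and the promoter behind the switch were not stated in the sources used.

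MHC class II molecules show peptides from endosomes to CD4 T cells. An alpha and a beta chain assemble on the invariant chain, Cd74, which blocks the groove until proteases in the endosome cut it down to a fragment called CLIP. H2-DM then exchanges CLIP for other peptides, and H2-O binds H2-DM and holds it back. Ciita, which does not bind DNA itself, switches on these genes through factors seated on the X and Y boxes of their promoters. Dendritic cells, B cells and thymic epithelium make class II constantly, and macrophages make it after interferon gamma.

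The promoter elements through which Ciita acts are shown first, because members that share them moved in different directions in the results below. Promoter windows of 300 bases (250 before and 50 after a start) from RefSeq, build GRCm38.p6, were available for 7 of the 10 members, namely H2-Aa, H2-Eb1, H2-DMa, H2-DMb1, H2-DMb2, H2-Oa and H2-Ob, all on chromosome 17. Capitals mark an X box core, AACNNATG, and the Y box, TGATTGG, both looked for on both strands; the letters were settled after these windows had been read. The 2 motifs do not overlap in the stretches printed, which run 5′ to 3′ along each gene's strand.
H2-DMb1, chr17:34153087-34153146, plus strand: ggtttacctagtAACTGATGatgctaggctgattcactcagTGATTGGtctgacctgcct
H2-DMb2, chr17:34145116-34145175, plus strand: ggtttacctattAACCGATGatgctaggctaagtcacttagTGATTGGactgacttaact
H2-Ob, chr17:34238808-34238864, plus strand: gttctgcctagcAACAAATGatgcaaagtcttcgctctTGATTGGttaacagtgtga
H2-Eb1, chr17:34305766-34305824, plus strand: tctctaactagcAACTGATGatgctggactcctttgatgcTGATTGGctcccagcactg
H2-Aa, chr17:34287855-34287921, minus strand: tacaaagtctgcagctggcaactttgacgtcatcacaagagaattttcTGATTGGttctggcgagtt
H2-Oa, chr17:34092286-34092352, plus strand: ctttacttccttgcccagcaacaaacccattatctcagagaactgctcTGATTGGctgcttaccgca

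The Y box was found in 6 of these 7 members, 45 bases before the start in H2-Oa, 50 in H2-Aa, 59 in H2-Ob, 61 in H2-Eb1, 63 in H2-DMb1 and 92 in H2-DMb2. In 4 of them, H2-DMb1, H2-DMb2, H2-Ob and H2-Eb1, the X core stood upstream of it with 18 to 21 bases between. Of all 32851 RefSeq windows of that length, 7.82% held the Y box, 8.86% the X core and 7 windows an X core followed by a Y box 15 to 25 bases on. Those 7 were the 4 members, H2-Eb2, BC051142 and AU016765, all on chromosome 17. The letters were settled after the members' windows had been read, and the range of 15 to 25 bases spans the gaps seen there. The count of members among the 7 is therefore no independent measure of how particular the pattern is to them. The windows of H2-Aa and H2-Oa held the Y box without these X core letters, and the 2 windows of H2-DMa held neither motif. That says only that these letters are not in those windows. Other forms of an X box were not looked for. The match is a description of the sequence and was not tested against the expression values.

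Cd74, H2-Aa, H2-Ab1 and H2-Eb1 were abundant with NRASG12V off and on, and the other members less so. In the on library Ciita ranked 5042 and H2-Ob 5051 among all genes. With NRASG12V off, Cd74 stood at 3055 FPKM after 48 h, 2232 FPKM after 72 h and 2218 FPKM after 96 h, against 2956 FPKM on, where it ranked 14 among all genes. FPKM divide a gene's fragments by its transcript length and the library's size, so levels of different genes can be compared; the 3 deposited tables were put on 1 scale through the on column they share. The order of the levels in the on library was Cd74, H2-Aa, H2-Ab1, H2-Eb1, H2-DMa, H2-DMb1, H2-DMb2, H2-Oa, Ciita and H2-Ob. Over the 3 off libraries the ranges of H2-Aa and H2-Ab1 overlapped, as did those of H2-DMb2 and H2-Oa, of H2-Oa and H2-Ob and of H2-Ob and Ciita, and the ranges of the other neighbours did not. Within each off library, however, H2-Oa was above H2-Ob and H2-Ob above Ciita, while the order of H2-Aa and H2-Ab1 and of H2-DMb2 and H2-Oa differed between libraries. Summed over the 10 members, the level was 6202, 4338 and 4233 FPKM in the off libraries and 5726 FPKM in the on library, of which Cd74, H2-Aa, H2-Ab1 and H2-Eb1 made up 94.9%, 94.9% and 95.1% off and 93.5% on. The 8 H2 members lie together on chromosome 17 (GRCm38, 34092340 at the start of H2-Oa to 34316674 at the end of H2-Eb1), and Ciita lies on chromosome 16 (10480059 to 10528418). In bulk RNA, fewer cells of a type and less RNA per cell cannot be told apart.

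**Figure D1:**
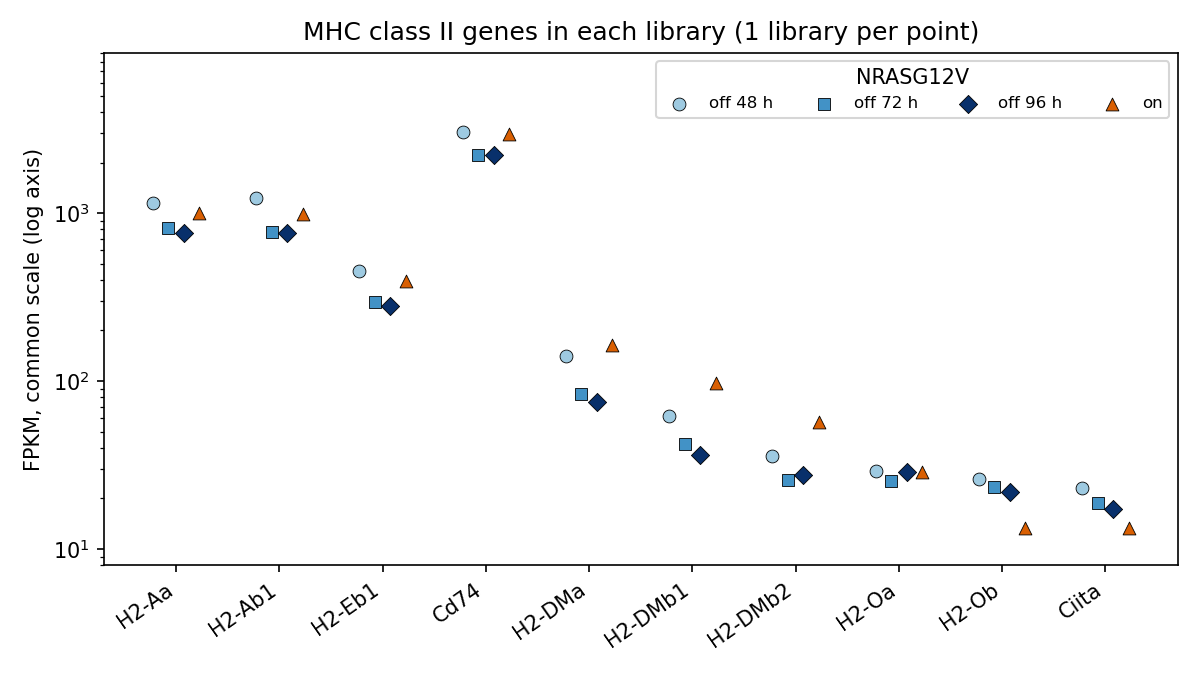
FPKM of the 10 class II genes on a log axis, with 1 point per library, for NRASG12V off at 48 h, 72 h and 96 h and for NRASG12V on. The on library lies above all 3 off libraries for H2-DMa, H2-DMb1 and H2-DMb2 and below all 3 for H2-Ob and Ciita, and within their range for the other 5 genes.

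The members did not move as 1 block. Changes are log2((off FPKM + 1)/(on FPKM + 1)) within each deposited table, a scale on which genes with low values show less than their full change. A limma test across 12015 genes, with Benjamini-Hochberg adjustment, then set the 3 off libraries as 1 group against the on library. It counts what changes between 48 h and 96 h as error, and it takes the error of the unreplicated on library from the off libraries. Of the 10 members 1 rose, H2-Ob, and 2 fell, H2-DMb1 and H2-DMb2, while 7 did not pass. Among all genes tested 11.8% rose and 15.1% fell (1415 and 1814 genes), so the members' share is near the background. With the median change set to 0 that split was 1726 and 1246, and with libraries rescaled without globins and short RNAs it was 2004 and 1005. The members' median limma change was -0.20 on the log2 scale, beside -0.08 for all genes tested. Among genes with at least 1 FPKM in every library the median change was -0.15 at 48 h, -0.08 at 72 h and -0.07 at 96 h. For 3 members every off value was lower than the on value and for 2 every one was higher, beside 45.6% and 33.5% of the genes tested.

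The classical chains and Cd74 were at or above the on library at 48 h and below it at the later times, by amounts that depended on the scaling. H2-Aa, the alpha chain of the H2-A molecule, stood at 1150, 819 and 767 FPKM in the 48 h, 72 h and 96 h libraries off, against 1009 FPKM on. H2-Ab1, its beta chain, stood at 1226, 773 and 761 FPKM off, against 993 FPKM on. For H2-Eb1, the beta chain of the H2-E molecule, the levels were 454, 295 and 280 FPKM off and 394 FPKM on. For each of these chains, as for Cd74, the 48 h library was the highest of the 4 and both later libraries lay below the on library. Their log2 changes were 0.19 to 0.30 for the 3 chains at 48 h, -0.30 to -0.42 at 72 h and -0.38 to -0.49 at 96 h. For Cd74 they were 0.05, -0.41 and -0.41. None of the 4 genes passed over the 3 times (limma, Benjamini-Hochberg adjusted p = 0.676 for H2-Aa, 0.749 for H2-Ab1, 0.581 for H2-Eb1 and 0.504 for Cd74). Rescaling without globins and short RNAs moved the changes of H2-Aa, H2-Ab1, H2-Eb1 and Cd74 to 0.41, 0.52, 0.42 and 0.26 at 48 h, to -0.07, -0.13, -0.18 and -0.17 at 72 h and to -0.21, -0.19, -0.30 and -0.22 at 96 h. It turned the mean changes of H2-Aa and H2-Ab1 from just below 0 to 0.04 and 0.07.

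H2-DM, the peptide exchanger, showed the lower levels with NRASG12V off. H2-DMb1 had 62.2, 42.3 and 36.4 FPKM at 48 h, 72 h and 96 h off, against 97.8 FPKM on, or -1.08 ± 0.39 on the log2 scale (mean and SD, n = 3). It passed by limma with a Benjamini-Hochberg adjusted p of 0.0278. Its neighbour H2-DMb2 had 35.7, 25.7 and 27.7 FPKM off, against 57.0 FPKM on, and fell by 0.93 on the log2 scale with an SD of 0.24 (limma, adjusted p = 0.0198). Both beta chains were lower off than on at every time, as were 45.6% of all genes tested. The alpha chain H2-DMa stood at 141, 84.0 and 75.2 FPKM off and at 164 FPKM on, a mean change of -0.76 ± 0.48 that did not pass (limma, adjusted p = 0.124). Here the 48 h library lay close to the on library and the later 2 well below it. The limma change of H2-DMa was -1.03 without the 48 h library, -0.66 without the 72 h library and -0.58 without the 96 h library. With rescaling it was -0.55. H2-DMb1 no longer passed with the median change set to 0 (limma, adjusted p = 0.0660) or with rescaling (0.0601), H2-DMb2 without the 72 h library (0.0679), and neither with the filter on low values removed (0.0855 and 0.0579). In GENCODE transcripts of GRCm38, 28.7% of the 36-base words of H2-DMb1 also occur in H2-DMb2, so reads may be divided between them. H2-DMa overlaps Brd2 on the opposite strand by 3094 bases, and Brd2 stood at 47.9, 48.2 and 51.8 FPKM off and 60.4 FPKM on.

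H2-O, which restrains H2-DM, did not follow it. H2-Ob, its beta chain, had 26.1, 23.4 and 21.9 FPKM at 48 h, 72 h and 96 h off, against 13.3 FPKM on. All off libraries lay above the on library, the mean log2 change was 0.79 ± 0.13 (SD, n = 3), and H2-Ob passed (limma, Benjamini-Hochberg adjusted p = 0.0188; 0.0621 without the 72 h library). Every off library lay above the on library for 33.5% of all genes tested. H2-Oa, the alpha chain, had 29.3, 25.2 and 28.8 FPKM off and 28.5 FPKM on, with a mean change of -0.04 ± 0.11 (limma, adjusted p = 0.892). The on value of H2-Oa lay inside the range of the off libraries, and its change turned to 0.17 with rescaling and to 0.06 with the median change set to 0. H2-Oa lies wholly within the opposite-strand gene BC051537 in GENCODE, and the strand setting of the counting is not given in the sources used here; BC051537 itself reached at most 1.44 FPKM.

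**Figure D2:**
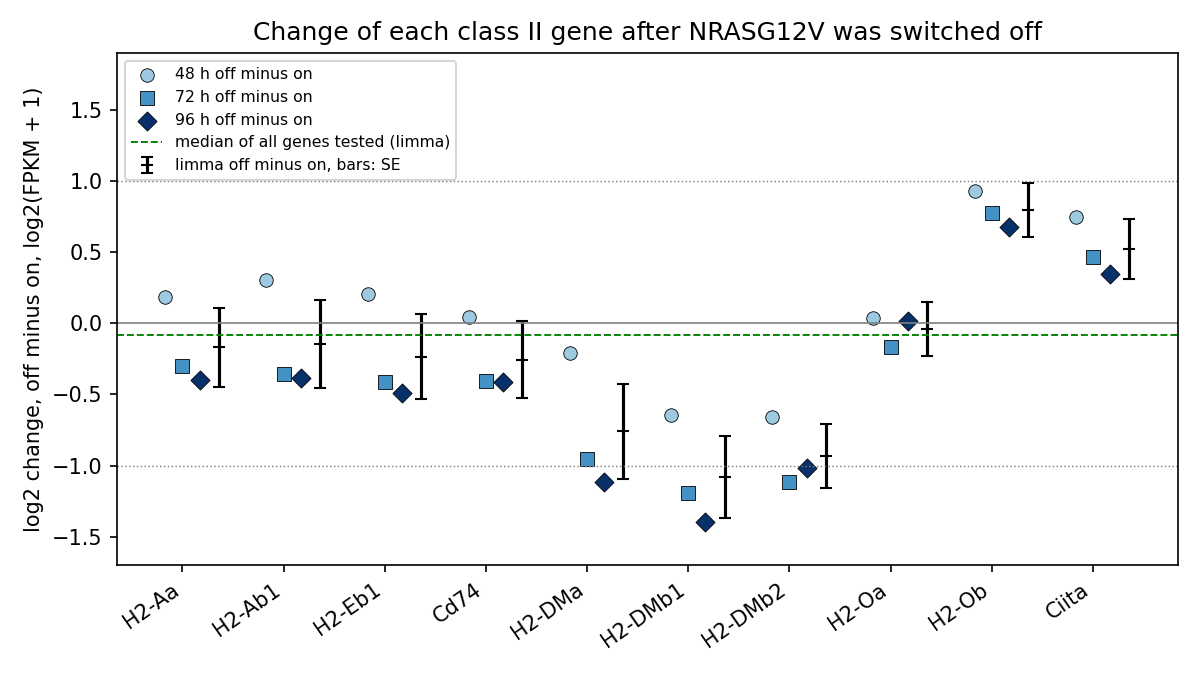
Log2 change of each class II gene, off minus on, at 48 h, 72 h and 96 h (symbols, 1 library each), with the limma estimate and its SE (bars) and the median of all genes tested (dashed line). H2-DMb1 and H2-DMb2 lie between -0.65 and -1.40, H2-Ob between 0.68 and 0.93, and the classical chains and Cd74 between 0.30 and -0.49; dotted lines mark 2-fold.

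Ratios within a library do not depend on how libraries were scaled against each other. The 3 H2-DM genes summed to 4.32, 3.12 and 2.75 times the 2 H2-O genes at 48 h, 72 h and 96 h off, against 7.62 times on. The off mean of 3.395 ± 0.82 (SD, n = 3) was 0.445 of the on value, which lay outside the off range. H2-Aa, H2-Ab1 and H2-Eb1 together stood at 11.8, 12.4 and 12.98 times the H2-DM genes off, against 7.52 times on. H2-Oa over H2-Ob was 1.12, 1.08 and 1.32 off and 2.15 on. By contrast, H2-Aa over H2-Ab1 was 0.938, 1.06 and 1.01 off and 1.02 on, and H2-DMb1 over H2-DMb2 was 1.74, 1.64 and 1.32 off and 1.72 on, so the on library lay within the off range for both pairs. It lay outside for H2-DMa over H2-DMb1 and H2-DMb2 (1.45, 1.24 and 1.17 off, 1.06 on), for H2-Eb1 over H2-Ab1 (0.371, 0.382 and 0.367 off, 0.397 on) and, narrowly, for Cd74 over the 3 classical chains (1.08, 1.18 and 1.227 off, 1.234 on). With 3 libraries against 1, an exact permutation test of a single ratio cannot give a one-sided p under 0.25, and none was run.

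**Figure D3:**
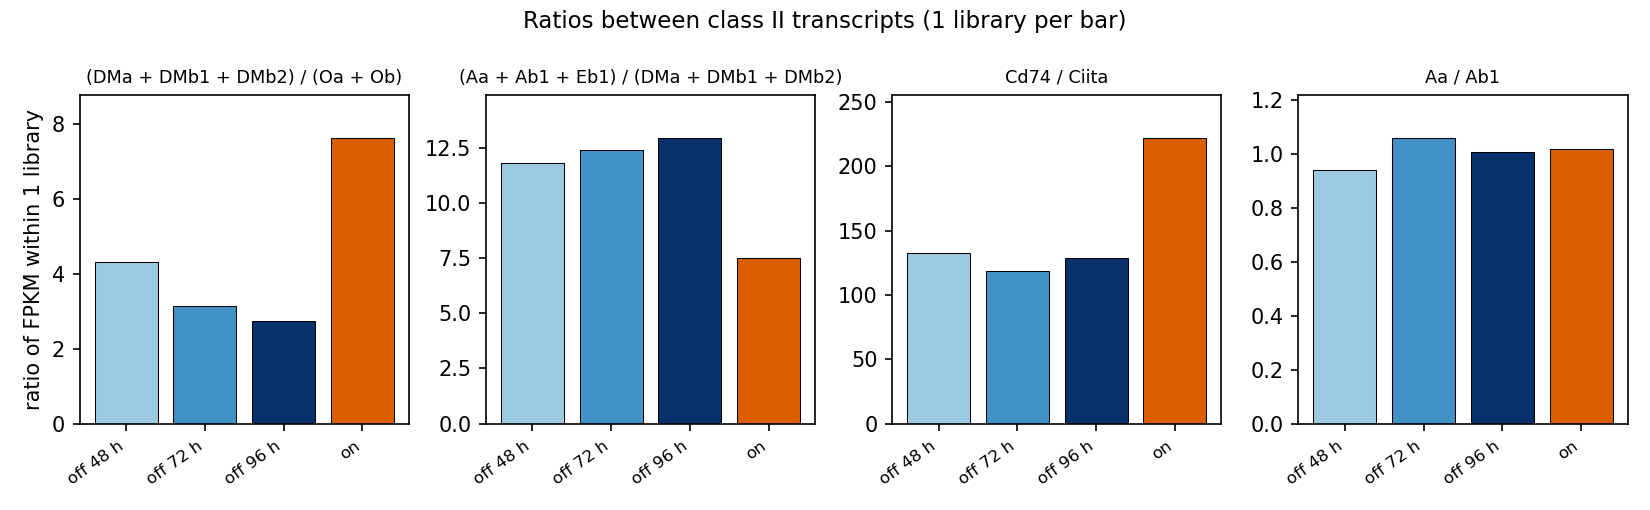
Ratios of summed FPKM within a library, 1 bar per library, for NRASG12V off at 48 h, 72 h and 96 h and for NRASG12V on, with axes starting at 0. H2-DM over H2-O is 4.32, 3.12 and 2.75 off and 7.62 on, Cd74 over Ciita is 133, 119 and 129 off and 222 on, and H2-Aa over H2-Ab1 stays between 0.938 and 1.06.

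Ciita, the regulator of the set, was higher in each off library than in the on library, as were 33.5% of all genes tested. It had 23.0, 18.8 and 17.2 FPKM at 48 h, 72 h and 96 h off, against 13.3 FPKM on. Its mean change of 0.52 ± 0.20 (SD, n = 3) did not pass (limma, Benjamini-Hochberg adjusted p = 0.0984). It did with rescaling (0.0405) but not with the median change set to 0 (0.0818). The limma change of Ciita was 0.41 without the 48 h library, 0.55 without the 72 h library and 0.61 without the 96 h library. Cd74 over Ciita, a ratio of the most abundant member to the regulator, was 133, 119 and 129 off and 222 on. In GENCODE, Ciita overlaps Dexi on the opposite strand, which stood at 6.46, 4.81 and 6.05 FPKM off and 5.79 FPKM on.

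Counted at each time, 0 of 10 members were at least 2-fold different at 48 h, beside 5% of genes higher and 4.85% lower. By 72 h H2-DMb1 (-1.19) and H2-DMb2 (-1.12), 2 members, had passed 2-fold on the lower side and 0 on the higher, beside 5.76% of genes lower and 6.61% higher. At 96 h, 3 were lower, H2-DMa (-1.11), H2-DMb1 (-1.40) and H2-DMb2 (-1.02), and 0 higher, beside 8.16% lower and 7.39% higher. With 1 library per time these counts have no replicate check. With rescaling they became 1 higher at 48 h (H2-Ob), 0 at 72 h and 1 lower at 96 h (H2-DMb1). The authors' combined off value was also set against the on column beside it. There the changes were -0.998 for H2-DMb1, -0.88 for H2-DMb2, -0.65 for H2-DMa, 0.84 for H2-Ob and 0.58 for Ciita. For H2-Aa, H2-Ab1, H2-Eb1, Cd74 and H2-Oa they were -0.10, -0.06, -0.15, -0.20 and 0.0015.

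The genes whose 3 changes lay nearest to those of Cd74, among 6014 others with a mean of at least 10 FPKM, were Nfkb2, an NF-kB subunit, Il2rg, the common gamma chain of cytokine receptors, Tor3a, Pnkd and Vps37b, at Euclidean distances of 0.06 to 0.12. H2-Aa ranked 22, H2-Eb1 23 and H2-Ab1 82, and H2-DMa, H2-DMb2, Ciita, H2-DMb1 and H2-Ob ranked 3531 or later. The 35 genes within 0.2 rest on 4 libraries that share 1 on library, so the likeness is a description.

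A pair of class II genes outside the 10, H2-Ea-ps and H2-Eb2, lies beside them on chromosome 17. H2-Ea-ps, the alpha chain partner of H2-Eb1, annotated in GENCODE as a polymorphic pseudogene because the C57BL/6 reference strain carries a null allele, had 22.4, 21.3 and 21.2 FPKM off, against 13.1 FPKM on. H2-Ea-ps rose, with a mean log2 change of 0.68 ± 0.04 (SD, n = 3; limma, Benjamini-Hochberg adjusted p = 0.0253; 0.119 without the 72 h library). Its ratio to H2-Eb1 was 0.0492, 0.0723 and 0.0759 off and 0.0333 on. H2-Eb2 stood at 1.11, 0.718 and 1.04 FPKM off and 1.35 FPKM on and did not pass (limma, adjusted p = 0.302).

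Around the members, genes of endosomal processing included 3 that fell and others that did not pass in either direction. Of 10 entries 8 matched a row (March1 and March8 were not matched by name). By limma 0 of the 8 rose and 3 fell, beside 11.8% and 15.1% of all genes tested. At an unadjusted p under 0.05, 4 were lower and 0 higher, beside 4973 of all 12015 genes tested in either direction. Ifi30, the thiol reductase that opens disulphides of antigens, had 156, 112 and 102 FPKM at 48 h, 72 h and 96 h off, against 283 FPKM on (limma change -1.22, SE 0.27, Benjamini-Hochberg adjusted p = 0.0137). Lgmn, an endopeptidase, had 41.9, 40.0 and 36.2 FPKM off, against 77.6 FPKM on (limma, adjusted p = 0.0102), and Ctsh was the third. Ctss, which makes the last cut of the invariant chain, stood at 162, 124 and 104 FPKM off and 213 FPKM on and did not pass (limma, adjusted p = 0.0758). Ctsd, an aspartyl protease, stood at 273, 285 and 297 FPKM off and 220 FPKM on, and Ctsb, a cysteine protease, at 193, 201 and 193 FPKM off and 174 FPKM on. Both were higher in every off library, as were 33.5% of all genes tested, and did not pass (limma, adjusted p = 0.199 and 0.546). The list's median limma change was -0.53, beside -0.08 for all genes tested. With the filter on low values removed Ifi30 did not pass (limma, adjusted p = 0.0511) and Lgmn did (0.0326).

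Factors that act on Ciita went both ways: of 12, 3 rose, 3 fell and 6 did not pass. Among all genes tested 11.8% rose and 15.1% fell. Spib, an Ets factor related to PU.1, had 3.27, 2.45 and 2.46 FPKM off, against 1.01 FPKM on (limma change 0.88, SE 0.19, Benjamini-Hochberg adjusted p = 0.0134). The coactivators Kat2b and Carm1 rose as well, by 0.69 and 0.80. Sfpi1, which encodes the myeloid and B cell factor PU.1, had 123, 90.1 and 73.1 FPKM off, against 201 FPKM on (limma change -1.10, SE 0.29, adjusted p = 0.0250; 0.0776 with no filter on low values, 0.0589 with the median change set to 0 and 0.0537 with rescaling). The interferon gamma receptor chain Ifngr1 (-0.83) and Irf8 (-0.85) fell too. Apart from Spib, Sfpi1, Ifi30 and Lgmn, the called genes of these lists are named because they are few, after their values were seen. Of the 7 factors that bind class II promoters (Rfx5, Rfxank, Rfxap, Nfya, Nfyb, Nfyc and Creb1), 0 passed limma's test. Of these factors 0 had an unadjusted p under 0.05, beside 4973 of all 12015 genes tested in either direction. Nfya, a subunit of NF-Y, was the most abundant of the 7 factors by its mean over the 4 libraries (23.6 FPKM, beside 23.4 FPKM for Nfyc). Nfya had 24.5, 25.5 and 25.6 FPKM off and 18.9 FPKM on (limma, adjusted p = 0.132, and 0.0414 with rescaling).

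Costimulatory ligands, which T cells need beside class II, split as well. Of 5 tested, 2 fell and 1 rose, beside 15.1% and 11.8% of all genes tested. Cd80 had 2.53, 1.61 and 1.64 FPKM off, against 4.16 FPKM on (limma, Benjamini-Hochberg adjusted p = 0.0250), and Cd86 had 11.6, 12.1 and 11.5 FPKM off, against 7.16 FPKM on (limma, adjusted p = 0.0309; 0.159 without the 72 h library). Both bind CD28 and CTLA-4 on T cells. Icosl was the other that fell. Cd80 did not pass with the median change set to 0 (limma, adjusted p = 0.0668), with rescaling (0.0588) or with no filter (0.0689), nor did Cd86 with no filter (0.0511).

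**Figure D4:**
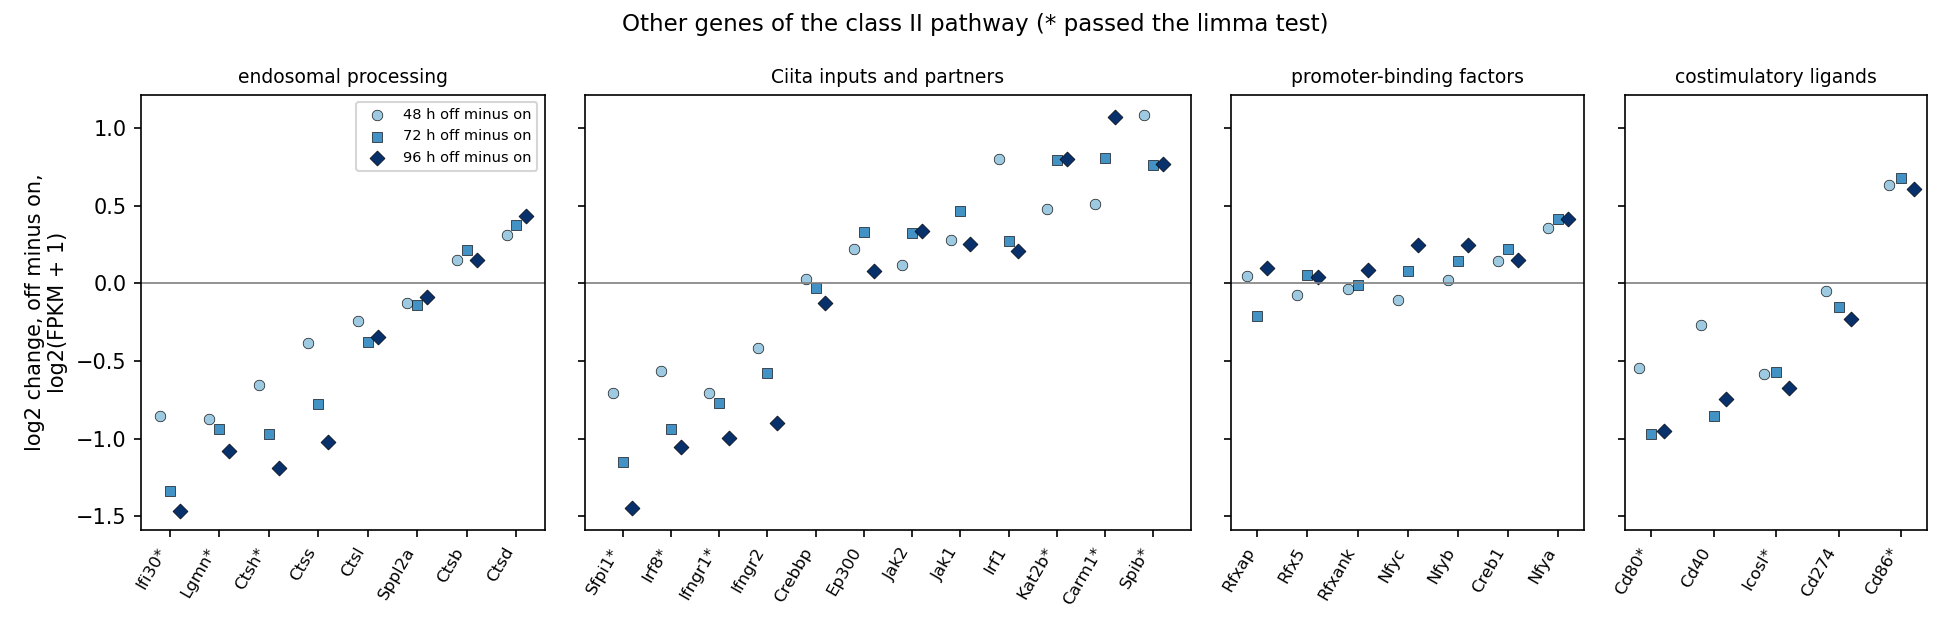
Log2 change, off minus on, of other class II pathway genes at 48 h, 72 h and 96 h (symbols, 1 library each), ordered by limma estimate within each list; an asterisk marks genes that passed limma's test. Ifi30, Lgmn and Ctsh lie at -0.65 or lower, the promoter-binding factors between -0.21 and 0.41, and Spib between 0.76 and 1.08.

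Markers of cells that carry class II were split. The counts of each list stand beside 11.8% of all genes tested that rose and 15.1% that fell. Of 16 dendritic cell markers 5 rose and 2 fell, and their summed level was 224, 173 and 160 FPKM at 48 h, 72 h and 96 h off and 165 FPKM on. Clec9a, a receptor of cross-presenting dendritic cells, had 20.7, 20.1 and 19.5 FPKM off, against 4.44 FPKM on (limma, Benjamini-Hochberg adjusted p = 0.000948), and Cd209a had 46.6, 27.0 and 21.6 FPKM off, against 9.88 FPKM on; the Cd209a call was lost with no filter on low values (limma, adjusted p = 0.0764). The 2 that fell were Mgl2, with 10.5, 7.49 and 5.28 FPKM off, against 18.7 FPKM on, and the chemokine Ccl17, with 0.614, 0.400 and 0.230 FPKM off, against 2.12 FPKM on. Itgax, which encodes CD11c, stood at 26.42, 26.82 and 26.003 FPKM off and 26.30 FPKM on, and the receptor Flt3 at 22.3, 21.1 and 20.4 FPKM off and 20.8 FPKM on. Of 12 macrophage markers 2 rose by limma (Vcam1 and Cd5l) and 0 fell, beside 11.8% and 15.1% of all genes. At an unadjusted p under 0.05, 3 were higher and 0 lower, beside 4973 of all 12015 genes tested in either direction. Without the 72 h library neither passed (limma, adjusted p = 0.0718 for Vcam1 and 0.0984 for Cd5l), nor did Cd5l with no filter (0.0703). Their sum was 522, 474 and 452 FPKM off and 359 FPKM on. Of 11 B cell markers 5 could be tested: 2 rose, among them Fcer2a, and 1 fell, Cd79b, with 4.65, 4.42 and 4.16 FPKM off, against 13.5 FPKM on. The sum of that list was 24.3 to 28.2 FPKM off and 27.1 FPKM on. Ebf1 and Cr2 stayed at or below 0.05 FPKM and Pax5 was listed at 0 in all 4 libraries. Cd79a had 0.0799, 0.176 and 0.115 FPKM off and 0.504 FPKM on, and Ms4a1 had 0.273, 0.466 and 0.480 FPKM off and 0.228 FPKM on. Cd22 stood at 5.07, 4.10 and 3.92 FPKM off and 6.03 FPKM on, and Blnk at 2.53, 1.75 and 1.86 FPKM off and 1.005 FPKM on. Of the T cell markers 3 of 6 tested rose, among them Cd3d (limma, adjusted p = 0.0171; 0.0672 with no filter), and Cd5 fell; their sum was 21.5 to 33.3 FPKM off and 18.0 FPKM on, with Cd3e at most 0.15 FPKM. The part of any of these cells in the class II values was not tested.

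Genes shared by leukocytes and genes of red cell precursors moved in opposite directions where they passed. Of 10 pan-leukocyte genes 3 fell by limma, among them Coro1a and Laptm5, and 0 rose, beside 15.1% and 11.8% of all genes tested. At an unadjusted p under 0.05, 7 were lower and 0 higher, beside 4973 of all 12015 genes tested in either direction. With no filter Coro1a and Laptm5 did not pass (limma, adjusted p = 0.0649 and 0.0668), nor did Laptm5 with the median change set to 0 (0.0521). The 10 pan-leukocyte genes summed to 3143, 2491 and 1910 FPKM off and 4327 FPKM on. Ptprc, which did not pass by limma, was higher than on at 48 h and 72 h. It had 101, 94.4 and 64.5 FPKM off and 69.9 FPKM on. By the same test all 10 erythroid markers rose, led by Kel and Hbb-b1, with sums of 5266, 8004 and 11180 FPKM off and 1392 FPKM on. The 10 class II members summed to 1.97, 1.74 and 2.22 times the 10 pan-leukocyte genes off, against 1.32 times on. Globins made up 8.73%, 13.1% and 11.9% of the summed FPKM, short RNAs left out, with NRASG12V off and 2.68% on. The part of this shift in makeup in the class II changes was not tested.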

How the data were processed

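Gene levels are FPKM computed by the authors, who aligned reads to mm9 with TopHat2 2.0.4 and ran Cuffdiff, per the submitters' processing notes. The on column recurs in each of 3 deposited tables of 1 time, scaled separately; its values agreed within 0.1% after 1 factor per table, which put all libraries on 1 scale. Read counts were not given, so the depth is unknown and no counting interval is given. The 0 h column was taken as the on library. From there, log2(FPKM + 1) was fitted with limma 3.58.1 (statmod 1.5.0, R 4.3.3; trend and robust variances, 2 residual degrees of freedom), the 3 off libraries against the on library, over 12015 genes reaching 1 FPKM in at least 1 library. The step was run on simulated data with changes larger than those of the members called. There the on library varied like the off libraries, so the run does not measure the error of the calls here. Adjusted p under 0.05 is a call; at single times it is a 2-fold difference. The members and lists were chosen with earlier results of these data known. All members were named; of each other list, the 2 called genes with the largest mean change (with none called, the most abundant), and the 5 genes nearest to Cd74. Other names were added after their values were seen. A marker and a pathway gene of these lists are not reported here. Promoter windows come from RefSeq (GRCm38.p6) and overlaps from GENCODE (GRCm38); no coordinates were converted from mm9. Alternatives were pseudocounts of 0.1 and 5, no filter, a mean of at least 5 FPKM, a median change of 0, rescaling without globins and short RNAs, plain eBayes and leaving out each off library.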

Additional observations from a re-analysis of the deposited data

Results flagged for a closer look

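The 4 genes of the class II molecule and its chaperone were above the on library at 48 h and below it at 96 h. The log2 change at 96 h minus that at 48 h was -0.58 for H2-Aa, -0.69 for H2-Ab1, -0.70 for H2-Eb1 and -0.46 for Cd74. With 1 library per time, and the same on library in both changes, the difference between the times was not tested.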

How the results depend on the processing

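The limma count of 3 members became 1 with no filter on low values, and 1 to 4 when each off library was left out; for all genes, 3229 calls became 2356 to 4158. At 48 h the 1156 genes at least 2-fold different became 1830 with a pseudocount of 0.1 and 531 with a pseudocount of 5, and the 0 members became 1 with the median change set to 0 and 1 with rescaling without globins and short RNAs. At 72 h the 1452 genes became 2185 and 686 with those pseudocounts, and the 2 members 0 with rescaling. At 96 h the 1824 genes became 916 with a pseudocount of 5, and the 3 members 1 with rescaling. Changes that reversed were H2-Aa (0.0430) and H2-Ab1 (0.0660) with rescaling; H2-Oa with the median change set to 0 (0.0607), with rescaling (0.17) and when 1 off library was left out (-0.0775 to 0.0255, the highest without 72 h); and, with rescaling, H2-DMa at 48 h (0.0055) and H2-Oa at 72 h (0.0529). The cause was not tested. Over all members and alternatives, 226 values kept direction and side of the threshold, 12 lost the call, 5 gained one and 7 reversed. Some of the 226 could not differ, so that count does not measure how firm the values are. At single times the filter leaves a member's change as it was, and a pseudocount cannot turn its direction. In limma, no filter, the filter on the mean and plain eBayes alter the p-value but not the change. No paired analysis was possible because there is 1 on library and the labels number no replicates. The on library cannot be left out, and an unknown depth limits what low values can show.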
